A study of Homo sapiens with 9 samples.

Results

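RN7SK, the gene of the 7SK small nuclear RNA, and 6 genes for the proteins that work with it were followed in RNA sequencing of ACHN cells, a human renal cell carcinoma line. The 6 protein genes are HEXIM1, LARP7, MEPCE, CDK9, CCNT1 and CCNT2. The 7 genes were found by symbol among 30673 genes with a level above 0 in at least 1 library. All 7 were above 0 in all 9 libraries and all 7 passed the filter on low levels, which kept 15541 genes. RN7SK was chosen by its higher FPKM at 50 nM than in DMSO cells, and the others as its protein partners. The values of RN7SK are therefore a description with no test, and the comparison of 50 nM with DMSO is the one used in the choice.

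The study asked how piericidin A, a bacterial product that blocks complex I of the mitochondrial respiratory chain, acts on renal cell carcinoma cells. ACHN cells, which grow attached, were cultured in MEM in 6-well plates in 3 groups, with piericidin A at 25 nM, with piericidin A at 50 nM, or with 0.1% DMSO. Each group has 3 libraries made from total RNA. The sources used here give neither the time of treatment nor how RNA was selected, nor whether DMSO was also in the medium of treated cells, and a single cell line stands for the disease. Nothing says that the samples of a group came from separate cultures, so p-values measure only the spread between these samples, which may be technical.

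P-TEFb is the kinase that lets paused RNA polymerase II move into productive transcription. It consists of CDK9 and a cyclin T, and it phosphorylates the polymerase tail and the pausing factors NELF and DSIF. Much of the P-TEFb of a cell is held inactive on 7SK RNA, an abundant short transcript of RNA polymerase III without a poly(A) tail. MEPCE caps the 5′ end of that RNA, LARP7 holds its 3′ end, and HEXIM1 or its paralog HEXIM2 binds its 5′ hairpin and then blocks CDK9. Release of P-TEFb from this particle supplies active kinase to genes that are being switched on.

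Levels are FPKM, fragments scaled by gene length and by library, as deposited. Multiplied by gene length and divided by a step per library, they gave back whole fragments. The totals were 24365472 to 29245674 per library, over the 18859 genes above 0 in all 9 libraries. The third 25 nM library stood apart from the other libraries of its group. Counts over genes differed between replicates by 15.7 and 17.8 times sampling noise (chi-square per degree of freedom) in the pairs that held it, and by 2.36 times in the other 25 nM pair. Those values were 4.77 to 7.88 among the 50 nM libraries and 1.75 to 2.39 among the DMSO libraries. Of 6 listed renal epithelial markers 5 had a row, and PAX8 (66.0 to 93.5 FPKM), PAX2 (11.9 to 17.5 FPKM), KRT8 (101 to 144 FPKM) and KRT18 (38.6 to 56.3 FPKM) were present in every library. LHX1 was low, at 1.32 to 2.75 FPKM, and fell by 0.89 at 25 nM and by 0.43 at 50 nM on the log2 scale, and CDH6 had no row. Markers of leukocytes, endothelium and fibroblasts with a row (CD68, PECAM1, VWF, CDH5, PDGFRA, DCN and LUM) were below the filter, and PDGFRB was at 0.309 to 0.756 FPKM.

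The 7SK transcript of GENCODE 29 is shown because its 5′ part carries the sites that matter for the kinase and because other genes resemble it. It lies at chr6:52995621-52995948 of GRCh38 on the plus strand and has 328 bases, of which the first 300 are given. The capitals mark the 3 occurrences of GATC, which read GAUC in the RNA. GAUC pairs in the 5′ hairpin are the known binding place of HEXIM1.
RN7SK: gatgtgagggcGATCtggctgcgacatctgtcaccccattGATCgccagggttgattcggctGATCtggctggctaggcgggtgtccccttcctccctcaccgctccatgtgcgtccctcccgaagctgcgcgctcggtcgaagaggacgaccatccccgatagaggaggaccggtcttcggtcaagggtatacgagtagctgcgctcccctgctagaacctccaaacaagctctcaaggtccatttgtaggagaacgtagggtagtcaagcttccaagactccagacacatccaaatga
The GATC stretches begin at bases 12, 41 and 63, counted from the 5′ end. Among 837 other small RNA transcripts of 250 to 350 bases in GENCODE 29, 27.8% hold at least as many.

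GENCODE 29 names 293 copies of this gene (RN7SKP and a number), and 54 of them were above 0 in at least 1 library. The measured copies had a median identity to RN7SK of 87.8% over their aligned parts, with a range of 67.1% to 97.9%. Only 4 of the 54 shared an exact run of at least 50 bases with it. RN7SKP16 and RN7SKP80, which are among the 3 copies with the highest mean level, are shown over the part that aligns to RN7SK, with capitals for bases that differ from it or are inserted.
RN7SKP16: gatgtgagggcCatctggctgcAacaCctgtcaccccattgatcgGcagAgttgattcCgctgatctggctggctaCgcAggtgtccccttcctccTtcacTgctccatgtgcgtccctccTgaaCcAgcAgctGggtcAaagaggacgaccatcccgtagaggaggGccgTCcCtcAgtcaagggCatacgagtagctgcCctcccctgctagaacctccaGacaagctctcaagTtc
RN7SKP80: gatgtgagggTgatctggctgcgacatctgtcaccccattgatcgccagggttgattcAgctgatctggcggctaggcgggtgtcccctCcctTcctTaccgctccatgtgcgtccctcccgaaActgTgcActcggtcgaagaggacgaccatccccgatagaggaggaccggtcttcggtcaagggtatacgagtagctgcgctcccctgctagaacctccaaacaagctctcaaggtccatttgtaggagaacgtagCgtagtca
RN7SKP16 (chr1:33336566-33336864, minus strand, 88.4% identity) differs at 25 bases and lacks 3. RN7SKP80 (chr22:42565048-42565330, minus strand, 96.3% identity) differs at 9 bases, lacks 1 and shares an unbroken run of 128 bases with RN7SK. How the authors counted fragments that fit both RN7SK and a copy is not stated in the labels, so levels of either are uncertain to that extent.

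RN7SK (ENSG00000202198, chr6:52995620-52995950, plus strand, 331 bases in the authors' table) measured 5.25, 5.08 and 6.52 FPKM in DMSO cells, 18.0, 23.3 and 27.6 FPKM at 25 nM and 24.5, 28.1 and 34.3 FPKM at 50 nM. All 6 piericidin A libraries were above all 3 DMSO libraries, and the libraries of the 2 doses overlapped. The mean was 22.9 ± 4.80 FPKM at 25 nM and 28.97 ± 4.94 FPKM at 50 nM, against 5.61 ± 0.790 FPKM in DMSO cells (SD, n = 3 each). On the log2(FPKM + 0.1) scale used for every difference below, RN7SK stood 1.998 above DMSO at 25 nM and 2.34 above DMSO at 50 nM. The 2 comparisons share the DMSO libraries.

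These levels rest on few fragments. RN7SK held 47, 45 and 63 fragments in the DMSO libraries, 147, 199 and 220 at 25 nM and 210, 241 and 309 at 50 nM. This is between 1.68 and 11.7 CPM (counts scaled to the library's total over genes above 0 in all 9 libraries), a low share for an RNA that is abundant in cells. The RNA selection of the libraries is not given, and its part in the RN7SK levels was not tested. In bulk RNA, more RNA per cell cannot be told apart from more cells that hold it.

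The copies together were also higher in treated cells. Summed over all 54, they held 59, 49 and 49 fragments in the DMSO libraries, 126, 126 and 76 at 25 nM and 222, 154 and 192 at 50 nM. Part of this sum is RN7SKP23, a gene of 4301 bases. On its own strand its best local alignment to RN7SK covers at most 30 bases, and the other strand was not searched. RN7SKP23 held 6, 4 and 10 fragments in the DMSO libraries, 43, 32 and 22 at 25 nM and 64, 56 and 59 at 50 nM. In the sum, every piericidin A library lay above every DMSO library. The third 25 nM library, which had the most RN7SK fragments of its group, had the fewest on copies. With RN7SK and its copies added up, the difference from DMSO on the log2 scale was 1.67 at 25 nM, against 1.998 for RN7SK alone.

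**Figure D1:**
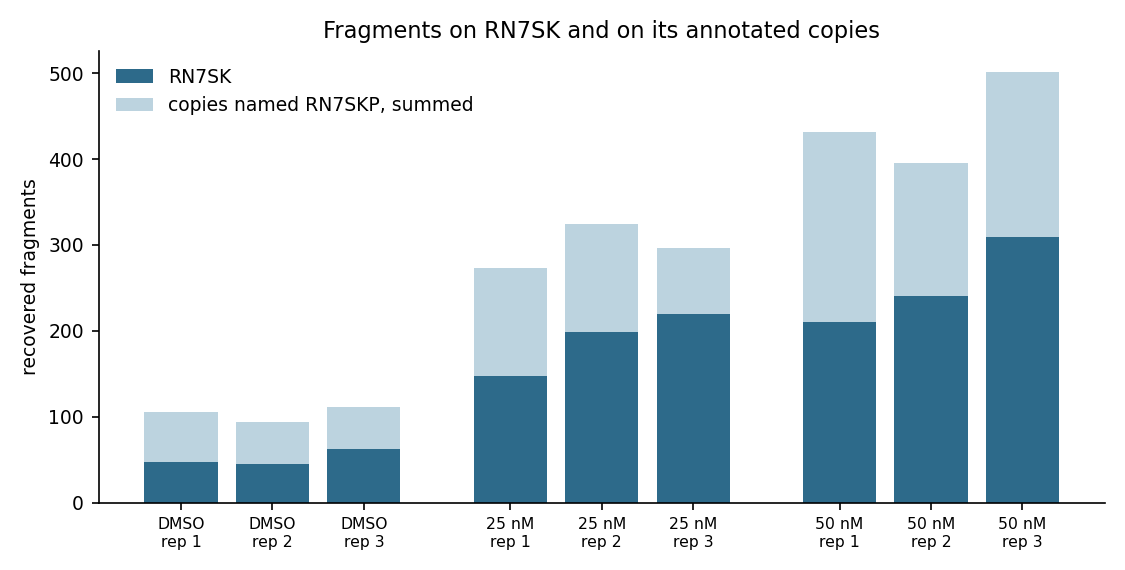
Recovered fragments (y axis) on RN7SK and, stacked above it, on the 54 measured copies together, for each of the 9 libraries (x axis). DMSO libraries hold 94 to 112 fragments in all, 25 nM libraries 273 to 325 and 50 nM libraries 395 to 501.

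RN7SKP80 measured 1.14, 0.410 and 0.586 FPKM at 25 nM, against 0.261, 0.132 and 0.363 FPKM in DMSO cells, from at most 8 fragments in any of these libraries, and it passed the filter through the treated groups alone, so no test is given. RN7SKP16 measured 3.36, 2.32 and 4.42 FPKM at 50 nM, against 0.618, 0.625 and 0.573 FPKM in DMSO cells (log2 difference 2.25). Each DMSO library held 5 fragments of it. At 25 nM RN7SKP16 measured 2.84, 3.11 and 0.555 FPKM, so that the third library lay at the DMSO level. RN7SKP275, the copy with the highest mean level, measured 3.47, 2.18 and 2.56 FPKM at 50 nM, against 2.21, 1.36 and 1.02 FPKM in DMSO cells. These groups overlapped, with a log2 difference of 0.84. The copies were named by their mean over all 9 libraries, treated ones included. Their differences are therefore a description with no test.

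RN7SK was not alone among short non-coding transcripts. The other 170 tested genes of its class, miscellaneous RNA, had a median log2 difference of 0.82 at 25 nM and 1.61 at 50 nM, each against DMSO. The medians were 0.70 and 1.46 for 186 small nuclear RNA genes and 0.85 and 1.64 for 155 small nucleolar RNA genes. For 11737 protein-coding genes they were -0.02 and -0.09. Of the 170 miscellaneous RNA genes, 22 stood at or above RN7SK at 25 nM and 45 did at 50 nM. Over all tested genes the share at or above RN7SK was 1.38% at 25 nM and 2.51% at 50 nM. Genes of any class with a listed length under 400 bases (580 tested) had medians of 0.40 at 25 nM and 0.94 at 50 nM. A gene entered with at least 0.5 FPKM in 3 libraries, so a gene of low level could enter through the group in which it was high. Such genes are part of these medians and counts and can raise them, so both are a description with no test. Whether fragment size or RNA selection moved these classes was not tested. More genes were above 0 at 50 nM, 25482 to 26388 per library, against 23641 to 24222 in DMSO libraries. The 25 nM libraries had 23947 to 24653, which overlapped the DMSO libraries.

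**Figure D2:**
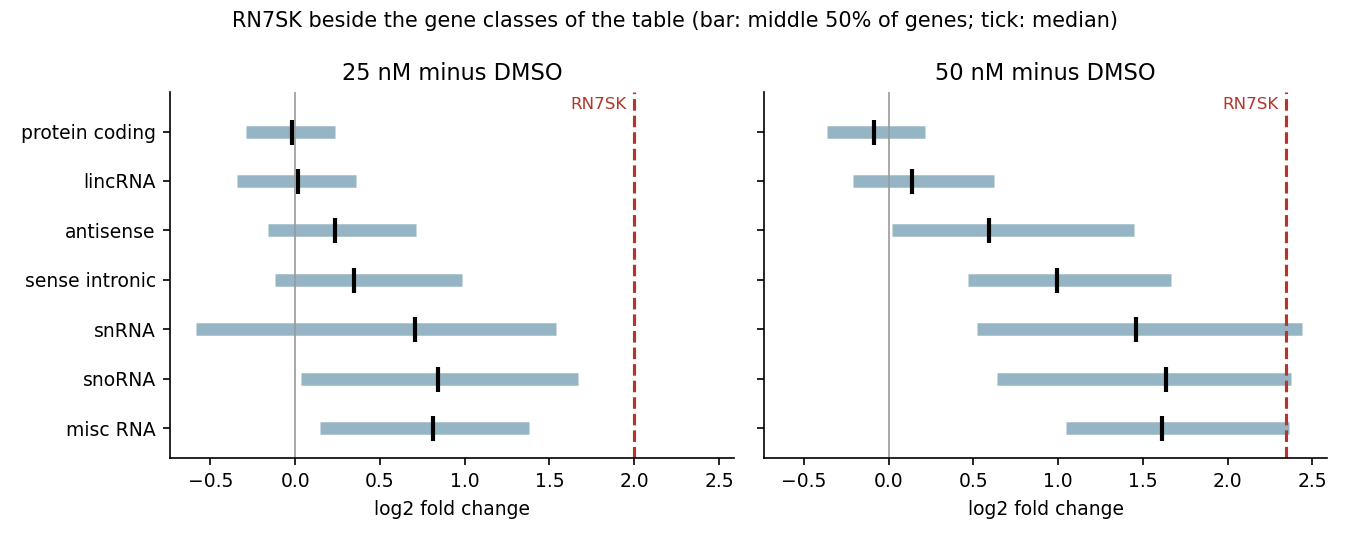
Log2 difference (x axis) of the tested genes of 7 annotated classes at 25 nM and at 50 nM, each minus DMSO: the bar spans the range between the lower and the upper quartile and the tick is the median. The dashed line is RN7SK, at 1.998 and 2.34, above the middle of every class at 25 nM and near the upper end of the small RNA classes at 50 nM.

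Other named transcripts of RNA polymerase III gave little to set beside it. Of 18 listed, among them RMRP, RPPH1, the Y RNAs and the vault RNAs, 4 had a row and 1, the U6 copy RNU6-8, passed the filter. RNU6-8 measured 1.81, 1.08 and 1.72 FPKM at 50 nM, against 1.04, 1.047 and 0.640 FPKM in DMSO cells, and was listed at 0 in a 25 nM library. It did not pass the test in any comparison (adjusted p = 0.621 at 25 nM and 0.559 at 50 nM, each against DMSO, limma). Of 14 listed small nuclear RNAs made by RNA polymerase II, 6 had a row and 0 passed the filter.

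The genes beside RN7SK on chromosome 6 did not show its pattern. GSTA4, a glutathione transferase gene 0.242 kb before RN7SK, measured 1.29 FPKM on average at 25 nM and 1.40 FPKM at 50 nM, against 1.55 FPKM in DMSO cells, and passed neither test. ICK, a kinase gene 5.33 kb after it, fell by 0.41 at 25 nM and by 0.64 at 50 nM on the log2 scale (adjusted p = 0.00211 and 1.11e-04, limma). No gene of the table overlaps RN7SK.

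The transcripts whose profile over the 9 libraries was most like that of RN7SK were KCNH1-IT1, HSPE1, AMH, MALAT1 and LCAT. Likeness is the root mean square difference of centred log2 values, among 7092 genes with a mean of at least 5 FPKM, and was 0.23 for KCNH1-IT1 and 0.30 to 0.35 for the others. MALAT1, a long nuclear RNA, averaged 77.9 FPKM at 25 nM and 134 FPKM at 50 nM, against 19.1 FPKM in DMSO cells. HSPE1, the co-chaperonin of mitochondria, averaged 33.6 FPKM at 25 nM and 29.3 FPKM at 50 nM, against 8.19 FPKM in DMSO cells. KCNH1-IT1, a transcript from within an intron, averaged 9.03 FPKM at 25 nM and 13.01 FPKM at 50 nM, against 2.83 FPKM in DMSO cells. All 5 were chosen for this likeness, and they share the libraries and their depth with RN7SK.

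The 6 protein genes moved apart from each other. At 25 nM 5 of the 6 passed the test (adjusted p under 0.05 over all 15541 genes), with LARP7 higher and HEXIM1, MEPCE, CCNT1 and CCNT2 lower than in DMSO cells. In that comparison 52% of all tested genes passed, 26.3% higher and 25.8% lower. At 50 nM 4 of the 6 passed, LARP7 higher and HEXIM1, MEPCE and CCNT1 lower, beside 60.7% of all tested genes (29.2% higher and 31.5% lower). Between 50 nM and 25 nM 2 passed, HEXIM1 and CCNT2, both higher at 50 nM, beside 33.5% of all tested genes (14.7% higher and 18.8% lower, 2288 and 2917 genes). With libraries scaled by fragment totals that split was 3153 and 1358 genes, and against DMSO the balance of higher and lower genes turned at both doses, with 3799 and 4261 in place of 4084 and 4002 at 25 nM and 5295 and 4109 in place of 4540 and 4901 at 50 nM. Under that scaling the members called against DMSO stayed at 5 and 4, while between the doses 4 of the 6 passed, CDK9 and CCNT1 being added. The libraries of the groups compared did not overlap for 62.6% of all tested genes at 25 nM against DMSO (31.5% higher, 31.1% lower) and for 70.4% at 50 nM against DMSO (33.9% higher, 36.5% lower). Between 50 nM and 25 nM this was 45.4% (21% higher, 24.4% lower). The median log2 difference of the 6 was -0.55 at 25 nM and -0.16 at 50 nM, each against DMSO, and 0.02 and 0.00 over all tested genes. For the 11737 tested protein-coding genes the medians were -0.02 and -0.09. Of these genes 3282 were called higher and 3700 lower at 25 nM, and 3015 higher and 4681 lower at 50 nM.

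**Figure D3:**
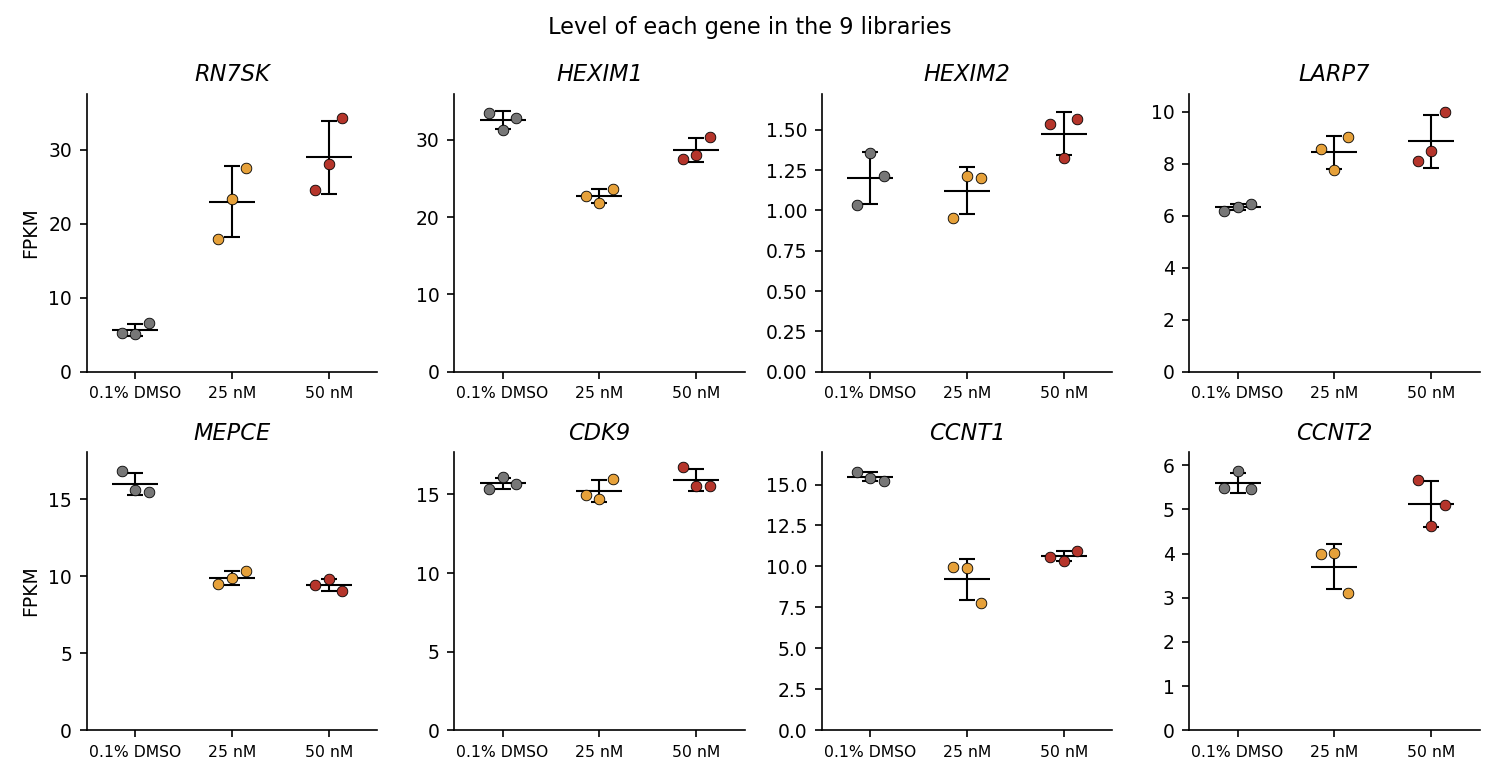
FPKM (y axis, from 0) of RN7SK, HEXIM1, HEXIM2, LARP7, MEPCE, CDK9, CCNT1 and CCNT2 in cells given 0.1% DMSO, 25 nM or 50 nM piericidin A (x axis). Points are libraries and the bars are the mean and SD of 3; HEXIM1 is lowest at 25 nM, MEPCE stands lower and LARP7 higher at both doses, and the groups overlap for CDK9.

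In DMSO cells HEXIM1 had the highest level per length of the 7, with 32.6 ± 1.12 FPKM (SD, n = 3). MEPCE, CDK9 and CCNT1 followed with means of 15.99, 15.7 and 15.5 FPKM and overlapping libraries. LARP7 (6.33 FPKM), RN7SK (5.61 FPKM) and CCNT2 (5.604 FPKM) came last, and the RN7SK libraries overlapped those of both. At 50 nM RN7SK and HEXIM1 had the highest means, 28.97 and 28.6 FPKM, with overlapping libraries.

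The RNA levels of LARP7 and MEPCE, whose proteins keep 7SK RNA stable, went opposite ways. LARP7 (ENSG00000174720, chr4:112636964-112657592, plus strand), which protects the 3′ end, measured 6.20, 6.35 and 6.44 FPKM in DMSO cells, 8.56, 7.76 and 9.02 FPKM at 25 nM and 8.09, 8.48 and 9.999 FPKM at 50 nM. Every treated library was above every DMSO library, and the doses overlapped. LARP7 rose by 0.41 ± 0.08 at 25 nM (log2, SE, adjusted p = 0.00284) and by 0.47 ± 0.08 at 50 nM (adjusted p = 9.40e-04, limma). The difference between the doses was 0.06, with a 95% interval from -0.12 to 0.25.

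MEPCE (ENSG00000146834, chr7:100428790-100434126, plus strand), which puts the methyl cap on the 5′ end, measured 16.8, 15.6 and 15.5 FPKM in DMSO cells, 9.48, 9.89 and 10.4 FPKM at 25 nM and 9.43, 9.80 and 9.08 FPKM at 50 nM. All treated libraries lay below all DMSO libraries. MEPCE fell by 0.68 at 25 nM (SE 0.05, adjusted p = 1.72e-05) and fell by 0.75 at 50 nM (SE 0.05, adjusted p = 4.54e-06, limma). The doses overlapped, with a difference of -0.07 and a 95% interval from -0.19 to 0.05. When libraries were scaled by their fragment totals, that difference was 0.03.

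The LARP7 to MEPCE ratio of FPKM was 0.902, 0.785 and 0.869 at 25 nM and 0.858, 0.865 and 1.10 at 50 nM, against 0.368, 0.406 and 0.416 in DMSO cells. No treated library overlapped a DMSO library. With 3 libraries against 3, the exact two-sided permutation test cannot go below p = 0.1, which it gave for each dose against DMSO (0.129 after Benjamini-Hochberg adjustment over 9 ratio tests). Between the doses the ratios overlapped (exact permutation p = 0.6).

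HEXIM1 (ENSG00000186834, chr17:45148502-45152101, plus strand), the protein that blocks CDK9 when bound to 7SK RNA, measured 33.5, 31.3 and 32.8 FPKM in DMSO cells, 22.8, 21.8 and 23.6 FPKM at 25 nM and 27.5, 28.0 and 30.4 FPKM at 50 nM. The 3 groups did not overlap, and the 50 nM libraries lay between the others. HEXIM1 fell by 0.52 at 25 nM (SE 0.05, adjusted p = 6.35e-05) and fell by 0.19 at 50 nM (SE 0.05, adjusted p = 0.0108), each against DMSO. With libraries scaled by fragment totals the fall at 50 nM was smaller, at -0.12 (adjusted p = 0.0417, limma). At 50 nM it was 0.33 above 25 nM (SE 0.05, adjusted p = 0.00167, limma). Thus the higher dose had the smaller difference from DMSO, and the difference between the doses was itself past the threshold.

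HEXIM2 (ENSG00000168517, chr17:45160700-45170040, plus strand), the paralog that can take the place of HEXIM1 on 7SK RNA, was much lower. It measured 1.03, 1.36 and 1.21 FPKM in DMSO cells, 0.953, 1.21 and 1.20 FPKM at 25 nM and 1.54, 1.32 and 1.57 FPKM at 50 nM. It passed no test as deposited. Its 95% interval against DMSO ran from -0.39 to 0.21 at 25 nM and from -0.02 to 0.59 at 50 nM. With libraries scaled by fragment totals, HEXIM2 was called higher at 50 nM (0.35, adjusted p = 0.0476 against DMSO and 0.46, adjusted p = 0.0301 against 25 nM, limma).

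The kinase passed no test as deposited. CDK9 (ENSG00000136807, chr9:127785679-127790787, plus strand) measured 15.4, 16.1 and 15.6 FPKM in DMSO cells, 15.0, 14.7 and 16.01 FPKM at 25 nM and 16.7, 15.5 and 15.5 FPKM at 50 nM. The groups overlapped throughout. The 95% interval of the log2 difference from DMSO ran from -0.15 to 0.06 at 25 nM and from -0.09 to 0.13 at 50 nM. Between 50 nM and 25 nM the difference was 0.07 (adjusted p = 0.326), and 0.16 with libraries scaled by fragment totals (adjusted p = 0.0354, limma).

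The ratio of the inhibitor to the kinase, HEXIM1 to CDK9, was 1.52, 1.49 and 1.47 at 25 nM, against 2.18, 1.94 and 2.10 in DMSO cells. At 50 nM it was 1.64, 1.80 and 1.96, which overlapped the DMSO libraries by 1 value. The exact two-sided permutation test gave p = 0.1 at 25 nM (adjusted 0.129) and p = 0.2 at 50 nM (adjusted 0.225), each against DMSO. The 50 nM ratios lay above all 25 nM ratios, again with an exact permutation p of 0.1. These are ratios of RNA levels, and protein was not analysed here.

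CCNT1 and CCNT2 encode cyclin T1 and cyclin T2, the alternative partners of CDK9. CCNT1 (ENSG00000129315, chr12:48688458-48716998, minus strand) measured 15.8, 15.4 and 15.2 FPKM in DMSO cells, 9.97, 9.91 and 7.78 FPKM at 25 nM and 10.6, 10.3 and 10.9 FPKM at 50 nM. No treated library reached the DMSO libraries, and the third 25 nM library was the lowest. CCNT1 fell by 0.75 at 25 nM (SE 0.09, adjusted p = 1.38e-04) and by 0.54 at 50 nM (SE 0.09, adjusted p = 5.54e-04, limma). Without the third 25 nM library, it fell by 0.63 at 25 nM. The 50 nM libraries were all above the 25 nM libraries, by 0.21 with a 95% interval from 0.02 to 0.40, which was not called (adjusted p = 0.0879) and was called with libraries scaled by fragment totals (0.31, adjusted p = 0.0357, limma). Without the third 25 nM library it was 0.09 (adjusted p = 0.0738, limma).

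CCNT2 (ENSG00000082258, chr2:134918235-134959342, plus strand) measured 5.48, 5.86 and 5.46 FPKM in DMSO cells, 3.998, 4.005 and 3.11 FPKM at 25 nM and 5.66, 4.62 and 5.09 FPKM at 50 nM. The 25 nM libraries lay below all others, and the 50 nM libraries overlapped those of DMSO cells. CCNT2 fell by 0.59 at 25 nM against DMSO (SE 0.11, adjusted p = 0.00148), and by 0.47 without the third 25 nM library (adjusted p = 0.00135). At 50 nM the difference from DMSO was -0.13, with a 95% interval from -0.37 to 0.11 and no call. It was -0.20 without the first 50 nM library and -0.06 without the second, and -0.06 with libraries scaled by fragment totals, again with no call. CCNT2 was higher at 50 nM than at 25 nM by 0.46 (SE 0.11, adjusted p = 0.0102, limma).

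The CCNT1 to CCNT2 ratio was 2.493, 2.474 and 2.502 at 25 nM and 1.87, 2.24 and 2.15 at 50 nM, against 2.88, 2.63 and 2.79 in DMSO cells. The 3 groups did not overlap. Each of the 3 comparisons gave an exact two-sided permutation p of 0.1, the smallest that 3 libraries against 3 allow (adjusted 0.129).

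**Figure D4:**
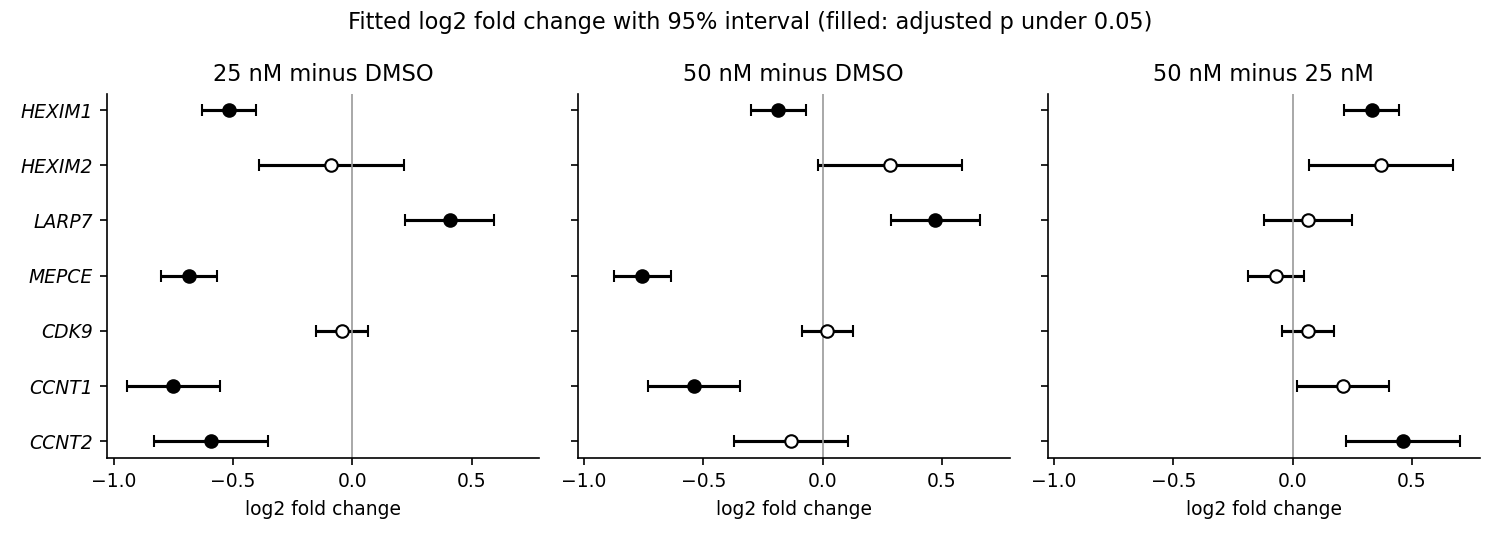
Fitted log2 difference (x axis) with its 95% interval for HEXIM1, HEXIM2, LARP7, MEPCE, CDK9, CCNT1 and CCNT2, at 25 nM minus DMSO, 50 nM minus DMSO and 50 nM minus 25 nM. Filled points passed at an adjusted p under 0.05: 5 genes in the first panel, 4 in the second and 2, HEXIM1 and CCNT2, in the third.

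Direction went along with gene length among protein-coding genes as a whole. In 4 groups of them from the shortest to the longest by listed length, the median log2 difference from DMSO was 0.19, 0.02, -0.07 and -0.21 at 25 nM and 0.08, -0.08, -0.14 and -0.23 at 50 nM. CDK9 belongs to the shortest group, HEXIM1, LARP7 and MEPCE to the second, CCNT1 to the third and CCNT2 to the longest. The part of length in the members' differences was not tested.

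Several members overlap a gene on the other strand, whose fragments may be counted with theirs, since the labels do not state whether the libraries keep strand. HEXIM1 overlaps AC002117.1 over 1702 bases, a gene with 0.272, 0.327 and 0.837 FPKM on average in DMSO, 25 nM and 50 nM cells. LARP7 overlaps ZGRF1 over 32 bases (2.11, 2.41 and 3.65 FPKM in the same order of dose). MEPCE overlaps ZCWPW1 over 203 bases (0.697, 0.979 and 1.20 FPKM) and CCNT2 overlaps CCNT2-AS1 over 476 bases (0.280, 0.0890 and 0.221 FPKM). LARP7 also overlaps AC106864.1 and MIR302A, whose group means were all under 1 FPKM. Each of these partners was lower in level per length than the member it overlaps. CDK9, CCNT1 and RN7SK overlap no gene of the table.

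HEXIM1 and CCNT2 had the closest profiles of any 2 members over the 9 libraries, with a root mean square difference of 0.16 on the centred log2 scale. MEPCE and CCNT1 were next with 0.18. RN7SK was the farthest from the others, between 0.84 (LARP7) and 1.39 (MEPCE). Outside the set, C15orf52, ZNF3, ZBTB7A, RBBP6 and CBX6 were most like HEXIM1, each with a difference of 0.07 among 7092 genes. CBX6, a chromobox protein of Polycomb complexes, averaged 18.0 FPKM at 25 nM and 24.0 FPKM at 50 nM, against 28.1 FPKM in DMSO cells. These values describe the shape of the profiles, and the libraries and their depth are shared by all of them.

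The promoters of HEXIM1 and CCNT2 are shown because these 2 members varied most alike. Each runs from 250 bases before to 50 after the gene start of RefSeq on GRCh38.p14, at chr17:45148225-45148524 and chr2:134918572-134918871, both on the plus strand. Of the 7 members, 6 matched an entry in that table. Capitals mark matches to motifs searched on both strands. They were the TATA box (TATAAA), the E-box (CACGTG), the core of the NRF1 palindrome (GCATGCGC), an ETS site (CCGGAAG), the GC box (GGGCGG) and the heat shock element.
HEXIM1: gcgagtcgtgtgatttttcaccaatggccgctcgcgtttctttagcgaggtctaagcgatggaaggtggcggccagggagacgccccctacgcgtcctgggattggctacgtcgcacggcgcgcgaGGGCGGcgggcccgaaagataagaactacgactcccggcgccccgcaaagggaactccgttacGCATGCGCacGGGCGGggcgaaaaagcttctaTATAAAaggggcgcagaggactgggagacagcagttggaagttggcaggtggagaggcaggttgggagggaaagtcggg
CCNT2: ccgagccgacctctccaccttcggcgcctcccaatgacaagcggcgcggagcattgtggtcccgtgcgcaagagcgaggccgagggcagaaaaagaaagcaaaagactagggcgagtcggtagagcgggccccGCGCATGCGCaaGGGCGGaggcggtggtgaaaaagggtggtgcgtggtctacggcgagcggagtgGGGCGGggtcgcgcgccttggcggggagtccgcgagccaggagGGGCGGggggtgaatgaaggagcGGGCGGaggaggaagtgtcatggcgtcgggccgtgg
The HEXIM1 promoter has a TATA box from base 222, and that of CCNT2 has none. Both hold the NRF1 core, once from base 190 in HEXIM1 and as 2 overlapping matches on opposite strands in CCNT2. Both also hold GC boxes, 2 in HEXIM1 and 4 in CCNT2. The NRF1 core is not particular to this pair, as a MEPCE promoter entry holds it too, from base 120. The MEPCE profile differed by 0.25 from that of HEXIM1 and by 0.32 from that of CCNT2 (root mean square, centred log2 scale). Of 35116 promoters of this length, 11.5% hold the TATA box, 3.05% the NRF1 core and 44.95% the GC box. The E-box (7.26% of promoters), the ETS site (10.3%) and the heat shock element (0.490%) were not found in either window.

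BET proteins and the super elongation complex take up free P-TEFb and bring it to genes. The counts of this and the following lists stand beside 26.3% of all tested genes that rose and 25.8% that fell at 25 nM, and 29.2% and 31.5% at 50 nM, each against DMSO. Of the 11737 tested protein-coding genes, 3282 rose and 3700 fell at 25 nM, and 3015 rose and 4681 fell at 50 nM. These shares differ with gene length. In the shortest of the 4 length groups, 1318 of 2931 genes rose and 385 fell at 25 nM. In the longest, 379 of 2930 rose and 1476 fell. The part of length in the list counts was not tested. Of the 11 tested genes of the BET proteins and that complex, 1 rose and 6 fell at 25 nM, with a median of -0.27, and 2 rose and 6 fell at 50 nM, also with a median of -0.27. AFF1, a scaffold of the super elongation complex, averaged 9.14 FPKM at 25 nM and 7.86 FPKM at 50 nM, against 14.9 FPKM in DMSO cells (log2 difference -0.72 and -0.92, adjusted p = 0.00118 and 2.06e-04, limma). AFF3, another member of the AFF family, fell by 0.75 at 25 nM and by 0.77 at 50 nM, and MLLT1, which reads acetylated histones for the complex, fell by 0.37 and by 0.27 at those doses.

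Other proteins bind 7SK RNA outside the core particle or help to release P-TEFb. Of 12 tested, 7 rose and 0 fell at 25 nM (median 0.26), and 3 rose and 1 fell at 50 nM (median 0.02). Scaled by fragment totals, 5 rose and 1 fell at 50 nM (median 0.09). SRSF2, a splicing factor that holds 7SK complexes at promoters, measured 32.8, 30.1 and 38.3 FPKM at 25 nM and 38.4, 36.5 and 39.9 FPKM at 50 nM, against 16.7, 15.3 and 15.5 FPKM in DMSO cells. Its log2 difference from DMSO was 1.08 at 25 nM and 1.27 at 50 nM. HNRNPA2B1, which binds 7SK RNA that is free of P-TEFb, rose by 0.51 and by 0.54, and HNRNPR rose by 0.36 and by 0.13, at 25 nM and at 50 nM. Between 50 nM and 25 nM, 0 of the 12 rose and 7 fell as deposited, whereas 2 rose and 2 fell with libraries scaled by fragment totals.

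The pausing factors that P-TEFb acts on were higher at 25 nM in 5 of 6 tested genes of NELF and DSIF, and at 50 nM in 3 of 6, with 0 lower at either dose. Their medians were 0.27 and 0.15. Under scaling by fragment totals 5 of the 6 were higher at 50 nM too. NELFCD measured 12.5, 11.98 and 13.9 FPKM at 25 nM and 13.5, 13.3 and 13.7 FPKM at 50 nM, against 8.58, 9.16 and 8.83 FPKM in DMSO cells, without overlap. NELFB rose by 0.18 at 25 nM and by 0.15 at 50 nM, and NELFE rose by 0.32 at 25 nM, with a difference of 0.15 at 50 nM that was not called (adjusted p = 0.0784, limma).

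Of 9 genes of the PAF1 complex and other elongation factors, 3 rose and 3 fell at 25 nM (median -0.03), and 1 rose and 5 fell at 50 nM (median -0.20). With libraries scaled by fragment totals, 3 rose and 4 fell at 50 nM (median -0.13). The counts at 25 nM are near the shares of all tested genes. CDC73, a PAF1 complex subunit, fell by 0.30 at 25 nM and by 0.63 at 50 nM, while RTF1, which acts with that complex, rose by 0.36 and by 0.28. TCEA1, which restarts stalled polymerase, fell by 0.24 at 50 nM and differed by 0.07 at 25 nM without a call.

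Among 9 genes of the other transcription kinases and their cyclins, 1 rose and 4 fell at 25 nM (median -0.04, and 0.02 without the third 25 nM library), and 1 rose and 6 fell at 50 nM (median -0.24), or 1 and 4 with libraries scaled by fragment totals. CDK8 and CDK19, the kinases of the Mediator complex, fell by 0.47 and 0.61 at 25 nM and by 0.54 and 0.70 at 50 nM. CCNH, the cyclin partner of CDK7, was the member that rose, by 0.40 at 25 nM and by 0.19 at 50 nM.

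RNA polymerase II, the enzyme that P-TEFb releases, had 11 tested subunit genes, of which 8 rose and 2 fell at 25 nM (median 0.41), and 6 rose and 3 fell at 50 nM (median 0.27). POLR2A and POLR2B, the 2 large catalytic subunits, fell by 0.40 and 0.60 at 25 nM and by 0.54 and 0.25 at 50 nM. POLR2K, a small subunit shared by the nuclear polymerases, measured 34.0, 30.0 and 34.4 FPKM at 25 nM and 24.2, 25.97 and 29.7 FPKM at 50 nM, against 18.5, 19.2 and 20.5 FPKM in DMSO cells.

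The factors that place RNA polymerase III at promoters of the RN7SK kind, with the La protein, were mixed. Of 12 tested, 5 rose and 3 fell at 25 nM (median 0.13), and 4 rose and 4 fell at 50 nM (median -0.07, and 0.00 with libraries scaled by fragment totals). Apart from the 5 that rose at 25 nM, the counts are near the shares of all tested genes. That number was 4 with libraries scaled by fragment totals, and also 4 without the third 25 nM library. Within the SNAPc complex, SNAPC4 measured 4.23, 4.22 and 4.67 FPKM at 25 nM and 7.505, 6.95 and 6.51 FPKM at 50 nM, against 3.68, 3.97 and 3.73 FPKM in DMSO cells. SNAPC3 went the other way, with 8.50, 8.81 and 7.98 FPKM at 25 nM and 5.94, 6.47 and 6.44 FPKM at 50 nM, against 10.5, 9.65 and 10.04 FPKM in DMSO cells. SNAPC4 rose by 0.86 and SNAPC3 fell by 0.67 at 50 nM against DMSO (adjusted p = 8.50e-06 and 1.26e-05, limma). SSB, the La protein that binds the ends of new RNA polymerase III transcripts, rose by 0.37 at 25 nM and by 0.29 at 50 nM.

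Of 13 genes for the subunits of RNA polymerase III, 4 rose and 3 fell at 25 nM (median 0.03), and 4 rose and 5 fell at 50 nM (median -0.11). Scaled by fragment totals, 4 rose and 2 fell at 50 nM (median -0.04). The counts as deposited are near the shares of all tested genes. POLR3B, the second largest subunit, fell by 0.70 at 25 nM and by 0.60 at 50 nM, and POLR3D fell by 0.47 and by 0.56. POLR3E rose by 0.18 at 25 nM and by 0.46 at 50 nM.

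**Figure D5:**
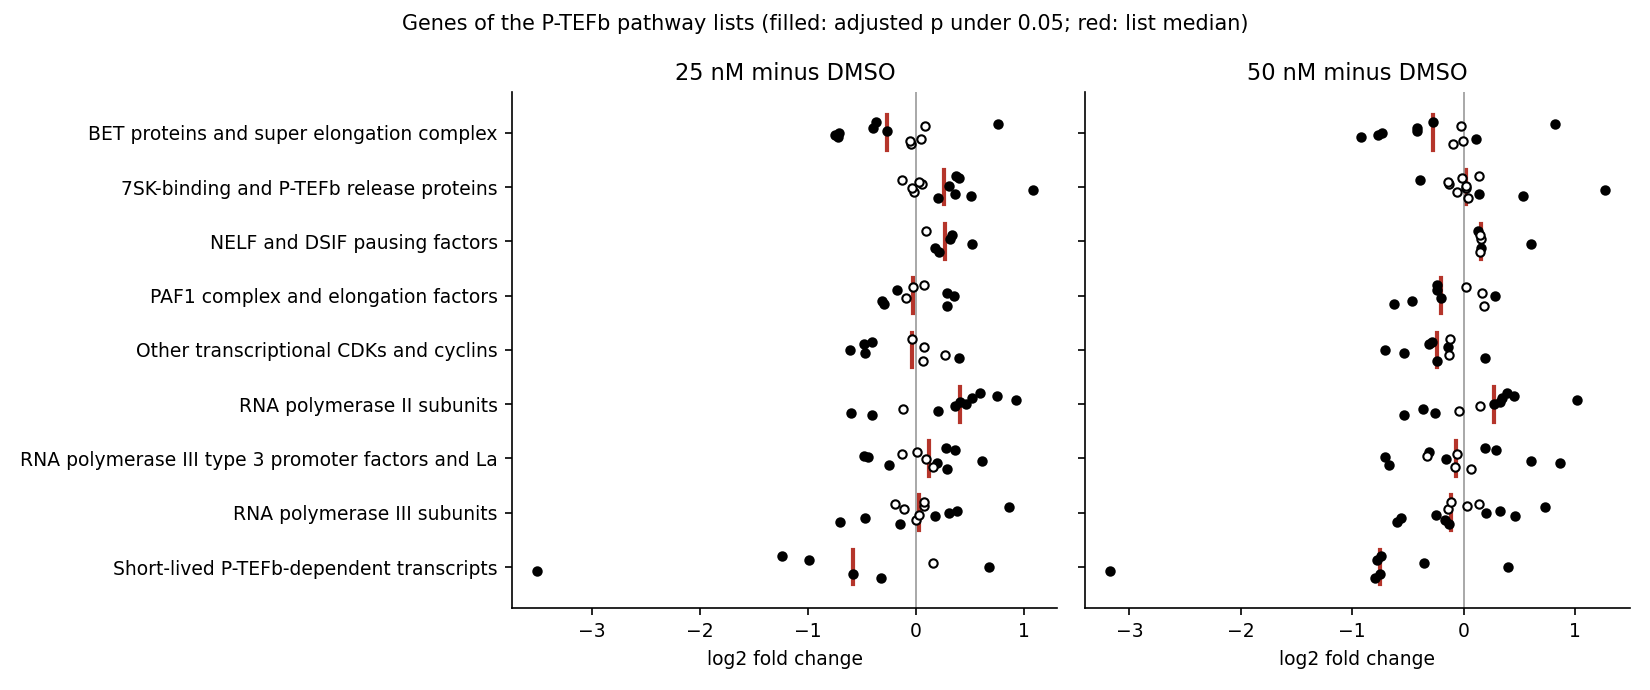
Log2 difference (x axis) of each tested gene of 9 lists around P-TEFb (rows), at 25 nM minus DMSO and at 50 nM minus DMSO; filled points passed at an adjusted p under 0.05 and the red tick is the list's median. NELF and DSIF genes lie right of 0, and 5 of 7 short-lived transcripts at 25 nM and 6 of 7 at 50 nM fell.

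Short-lived transcripts are known to fall early when P-TEFb is blocked. Of 7 tested, 1 rose and 5 fell at 25 nM (median -0.59), and 1 rose and 6 fell at 50 nM (median -0.75). P-TEFb activity was not analysed here, and its part in these differences was not tested. MCL1, which holds off cell death, measured 44.8, 48.0 and 41.7 FPKM at 25 nM and 40.5, 40.2 and 39.3 FPKM at 50 nM, against 67.5, 68.0 and 66.2 FPKM in DMSO cells. IER2, an immediate early gene, fell by 1.24 at 25 nM and by 0.74 at 50 nM, and was 0.50 higher at 50 nM than at 25 nM (adjusted p = 0.00169, limma). JUN, a subunit of the AP-1 factor, was the member that rose, by 0.68 at 25 nM and by 0.40 at 50 nM. FOS, its partner, named after its values were seen, measured 0.650, 0.442 and 0.371 FPKM at 25 nM and 0.896, 0.726 and 0.363 FPKM at 50 nM, against 11.1, 5.48 and 4.40 FPKM in DMSO cells.

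The lists were counted again without the third 25 nM library. At 25 nM against DMSO, the numbers that rose and fell were then 1 and 5 for BET proteins and the super elongation complex. They were 7 and 0 for 7SK-binding and release proteins, 4 and 0 for NELF and DSIF, and 2 and 5 for the short-lived transcripts. The PAF1 complex and elongation factors had 4 and 3, and the other transcription kinases and cyclins 1 and 4. RNA polymerase II subunits had 7 and 3. For RNA polymerase III, the promoter factors with La had 4 and 3, and the subunits 3 and 2.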

How the data were processed

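RNA was sequenced from 9 samples of ACHN cells. The authors deposited FPKM for 30673 genes and, per the file headers, log2 FPKM with symbol, position, length and type for the 18859 genes above 0 in all 9 libraries. Both tables agree to 0.005 on the log2 scale, and the deposited FPKM hold no raw counts, although 1 table is named for read counts. The genome is hg38 per the submitters' processing notes. Aligner, counting program, annotation release and strandedness are not given in the sources used here.

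FPKM times length gave whole fragments for 100% of genes with a length (tolerance 0.01), used for depth and for an alternative scaling. The fragment totals leave out genes that were at 0 in any library. The test took the 15541 genes that reached 0.5 FPKM in 3 or more libraries and used limma 3.58.1 (trend and robust) in R 4.3.3 on log2(FPKM + 0.1), all 9 libraries and group as the only covariate. The pseudocount understates the change of low genes. Benjamini-Hochberg adjustment of p-values ran over all tested genes, with a threshold of 0.05, and the fit was checked on simulated data. Ratios were compared with the exact two-sided permutation test. Copies and motifs were searched with Python 3.11.15 and Biopython 1.88 in GENCODE 29 and RefSeq sequences. Types of genes outside the log2 table came from GENCODE 29.

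The members and lists were chosen with earlier results of these data known. One gene counted in a list is not reported by name here. Named were the members, HEXIM2, up to 3 tested genes of each list with the smallest p in any comparison, the 5 genes most like RN7SK and most like HEXIM1, and up to 3 copies of highest mean level. RN7SKP23 was named after its fragments were seen. The alternatives tried were pseudocounts of 1 and 0.01, no filter on low values, fragment-total scaling, limma without trend and robust, fits on the 2 groups compared, a replicate block, RN7SK summed with its copies and leaving out each replicate.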

Additional observations from a re-analysis of the deposited data

How the results depend on the processing

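The calls of the 6 protein genes at 25 nM (5) and at 50 nM (4) against DMSO held under every alternative run. Scaled by fragment totals, 4 rather than 2 were called between 50 nM and 25 nM, and MEPCE differed there by 0.028 rather than -0.07. RN7SK summed with its copies stood 1.67 above DMSO at 25 nM, rather than 1.998. Left-out libraries gave 3441 to 5829 genes called between the doses (5205 with all), the lowest without the first 50 nM library. They also turned the sign of 3 uncalled differences. CDK9 at 50 nM against DMSO ran from -0.015 (without the first 50 nM library) to 0.039, LARP7 between the doses from -0.025 (without the third 50 nM library) to 0.126, and HEXIM2 at 25 nM against DMSO from -0.183 to 0.016 (without the first 25 nM library). For these the cause was not tested. Same-numbered libraries of different groups correlated between -0.0469 and 0.0793 in their deviations, with 0 of 9 pairs over 0.1. No strong effect shared by number was thus seen, and this cannot show whether such libraries were prepared together. A replicate block kept the members called at 5, 4 and 2 and gave 7640, 9107 and 4587 genes called in place of 8086, 9441 and 5205. The list counts under fragment-total scaling and without the third 25 nM library were added after seeing the data, and 17 of them moved by over 1.5 times. With 45 to 63 RN7SK fragments in a DMSO library, its level there is limited by counting error.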
